A study of Mus musculus with 12 samples.

Results

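The genes described here are 7 genes known from alternatively activated macrophages: Arg1, Chil3, Retnla, Mrc1, Cd163, Mgl2 and Il4ra. They were chosen by name, with earlier results of these libraries known, out of 23238 gene symbols in the data, 17480 of them with at least 1 count. All 7 were listed, and all 7 passed the filter on low counts that left 13054 genes for fitting. Because the values of the 7 genes in these libraries were known when they were chosen, their levels and fold changes are given as a description, without a test. Tests are reported only for other genes, those of the same pathway and of lists of pan-macrophage, alveolar macrophage, arginine and classical activation genes. These lists were also chosen with earlier results of these data known, so the shares called among them are a description too.

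RNA was sequenced from lung cells of 12 mice, 3 in each of 4 groups, sorted by flow cytometry as EpCAM-positive and CD74-positive cells to obtain alveolar type II (ATII) cells, the surfactant-producing cells of the alveolus. Con mice received phosphate-buffered saline (PBS) and are the Spc-p300 f/f controls, called wild type in the sample labels and C57BL/6 in the study's methods. BLM mice were the same controls given bleomycin, a drug that injures the lung epithelium, into the trachea at 4 mg/kg. KO mice were Spc-p300 d/d animals given PBS, in which p300 (Ep300), a histone acetyltransferase, is deleted by a tamoxifen-inducible Cre driven by the surfactant protein C promoter, and KOBLM mice were Spc-p300 d/d animals given bleomycin. Tamoxifen to delete p300 was given at 10 mg/kg at 8 weeks of age, and the study's methods give 8 to 10 weeks for the mice whose cells were sequenced. The labels do not say for each group whether tamoxifen was given, and the study's supplement mentions vehicle as well as tamoxifen for ATII cells, so an effect of tamoxifen and one of the deletion cannot be told apart here. The surfactant protein C promoter directs the Cre to ATII cells, so the deletion is not aimed at macrophages. The time between bleomycin and sorting was not given in the sources used here.

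Alternative activation is the state that macrophages enter when interleukin-4 or interleukin-13 acts through a receptor that contains the chain encoded by Il4ra. The receptor signals through Janus kinases to the transcription factor STAT6, which switches on genes for arginine breakdown, secreted lectins and endocytic receptors. In the lung these cells are studied for their part in repair, parasite defence and fibrosis. Resident alveolar macrophages of the mouse express part of the programme, Chil3 and Mrc1 among it, without injury, whereas Arg1 is a gene of recruited and cytokine-stimulated macrophages.

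The promoters of 3 of the genes are shown because Chil3 and Mrc1 were the most correlated pair of the 7 in these libraries and the Retnla promoter holds every kind of factor site searched but one. RefSeq sequences on GRCm38.p6, from 250 bases before to 50 bases after the annotated start and written 5′ to 3′ on the strand of the gene, were found for 6 of the 7 genes, all but Arg1. The letters TTCNNNGAA (STAT factors), TTC and GAA set 4 bases apart (the longer spacing that STAT6 accepts), TTGCNNAA or TTNNGCAA (C/EBP factors) and GAGGAA or TTCCTC (PU.1, the macrophage lineage factor) were searched, which covers both strands of each motif. Matches are in capitals.
Chil3, minus strand, chr3:106167515-106167814: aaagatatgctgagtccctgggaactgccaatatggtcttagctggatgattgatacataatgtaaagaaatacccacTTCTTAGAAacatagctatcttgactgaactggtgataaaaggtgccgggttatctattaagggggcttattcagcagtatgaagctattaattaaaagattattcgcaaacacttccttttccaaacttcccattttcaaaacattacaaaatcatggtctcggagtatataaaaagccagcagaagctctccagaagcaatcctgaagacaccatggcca
Mrc1, plus strand, chr2:14229164-14229463: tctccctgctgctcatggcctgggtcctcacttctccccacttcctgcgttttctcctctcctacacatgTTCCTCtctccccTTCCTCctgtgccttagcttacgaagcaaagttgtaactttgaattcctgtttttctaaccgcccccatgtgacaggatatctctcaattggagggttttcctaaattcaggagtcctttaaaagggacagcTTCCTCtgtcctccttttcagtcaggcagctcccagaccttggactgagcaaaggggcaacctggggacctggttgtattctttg
Retnla, plus strand, chr16:48842359-48842658: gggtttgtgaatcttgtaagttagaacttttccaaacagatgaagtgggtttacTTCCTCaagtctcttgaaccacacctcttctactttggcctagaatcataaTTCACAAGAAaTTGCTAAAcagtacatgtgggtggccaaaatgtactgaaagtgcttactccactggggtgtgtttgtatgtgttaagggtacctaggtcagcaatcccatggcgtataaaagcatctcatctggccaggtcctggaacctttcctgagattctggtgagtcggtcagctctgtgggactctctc

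The Chil3 promoter held 1 match to TTCNNNGAA, beginning 172 bases before the start. Retnla held 1 match to the longer STAT6 spacing beginning 145 bases before the start and 1 to TTGCNNAA beginning 134 bases before it, with 1 base between them, and 1 PU.1 match 196 bases before the start. Mrc1 held 3 PU.1 matches and neither STAT spacing. Mgl2 held 1 PU.1 match, and no letters of the 4 motifs were found in the windows of Cd163 and Il4ra. Among all 32851 promoters of this length, 8.3% held TTCNNNGAA, 6.95% the longer spacing, 10.8% a C/EBP match and 28.3% a PU.1 match, so that the matches are common sequences and are given as a description only.

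Library totals ran from 7005005 to 11153154 counts. Levels are given as CPM, the count of a gene scaled to the library total, and a floor of 3 counts for calling a gene detected was 0.269 to 0.428 CPM. Molecular identifiers are not mentioned in the sources used here, so floors account for counting error alone. The kit reads the 3′ end of each polyadenylated transcript, so counts do not grow with transcript length and CPM were not divided by it. Despite the epithelial gate, a list of 17 pan-macrophage markers summed to between 8963 and 21201 CPM in 11 libraries, and a list of 12 ATII markers, which includes the gate marker Cd74, to between 798.1 and 3797.6 CPM in all 12. In bulk RNA, fewer cells of a type and less RNA per cell cannot be told apart. Sftpc, the defining ATII transcript, ranged from 5 counts in KOBLM 3 to 5720 in Con 2, and Sftpb had no count in KOBLM 3. Ep300 was not lower in the libraries labelled KO (134 ± 27.1 CPM, SD, n = 3) than in Con (112 ± 52.7 CPM), but reads at its 3′ end lie away from the floxed exon 9 and do not check the deletion. Library BLM 3 stood apart from the others. It had the fewest genes with a count (6847, against 8790 to 13838 elsewhere), only 874.7 CPM of the pan-macrophage markers, and 2736 CPM of pluripotency markers, which summed to at most 30.2 CPM in any other library. Comparisons with BLM are therefore given with and without it.

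**Figure D1:**
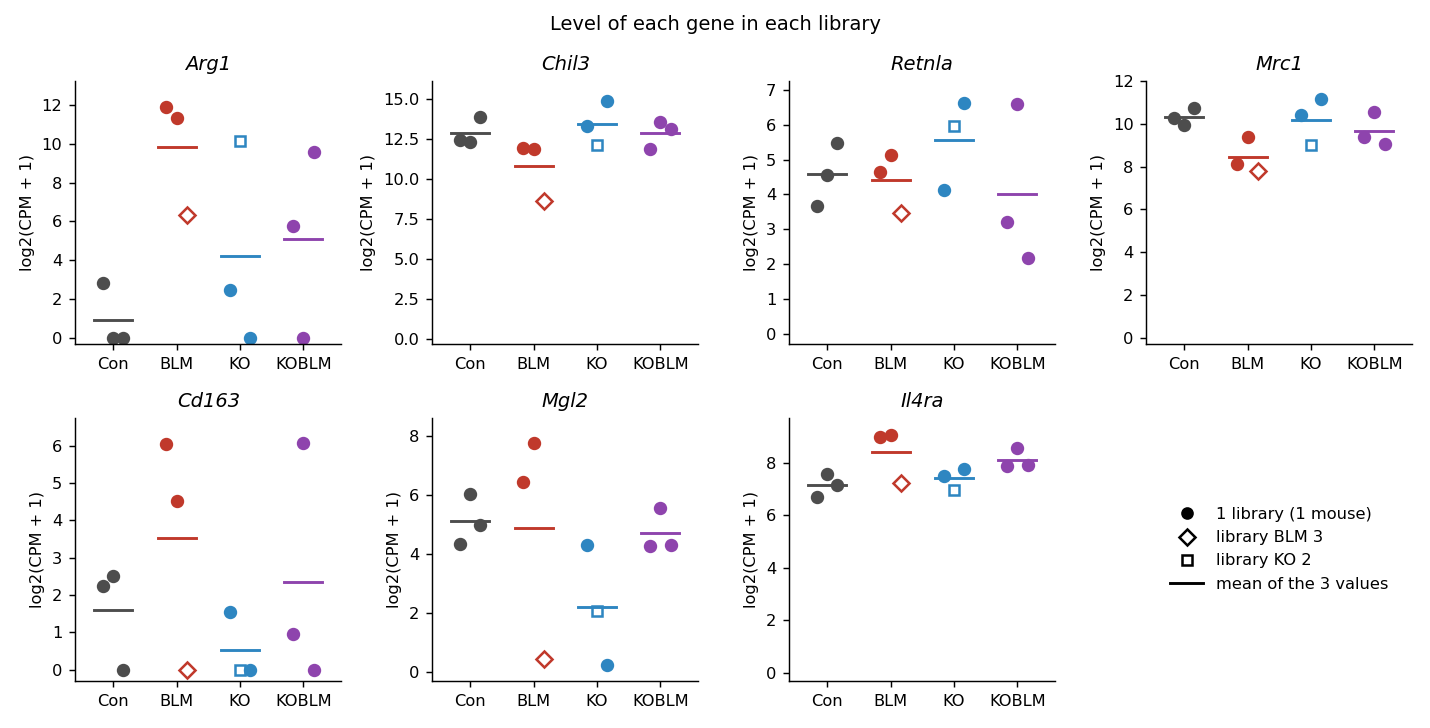
Level of the 7 genes in every library, as log2(CPM + 1) on the y axis, by group on the x axis; points are single mice, lines the mean of the 3 plotted values, and open symbols mark libraries BLM 3 and KO 2. Arg1 sits at 0 in Con 2 and Con 3 and highest in BLM 1 and BLM 2, with KO 2 and KOBLM 3 apart from the rest of their groups.

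Arg1 encodes arginase 1, the enzyme that splits arginine into ornithine and urea and so competes with nitric oxide synthase for its substrate. It lies on the minus strand of chromosome 10 (GRCm38, 24915221 to 24927484) and has 8 exons. The Con libraries held 47, 0 and 0 counts of it. In BLM there were 26168, 19278 and 881 counts, or 3736, 2543 and 79.0 CPM, and the lowest of these was above every Con library. The KO libraries held 45, 8212 and 0 counts, so that 1 mouse given PBS, KO 2, reached 1128 CPM while the others were at or near the Con level. KOBLM was as uneven, with 399, 0 and 6749 counts (53.4, 0 and 748.1 CPM). Mean CPM were thus 2.10 ± 3.63 in Con, 2119 ± 1865 in BLM, 378 ± 650 in KO and 267 ± 417 in KOBLM (SD, n = 3 each). In every bleomycin or knockout group the SD was close to or above the mean, and BLM was the sole group in which all 3 libraries had clear Arg1 counts.

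Chil3 encodes the chitinase-like lectin Ym1, secreted by alveolar and alternatively activated macrophages. It lies on the minus strand of chromosome 3 (106147554 to 106167564) and has 11 exons. Its CPM were 5534, 5126 and 15129 in Con, and 3871, 3764 and 389.4 in BLM. All 3 BLM libraries were below all 3 Con libraries. In KO they were 10130, 4491 and 30547 CPM, and in KOBLM 3841, 12280 and 8996 CPM, and both groups overlapped Con. Means were 8596 ± 5661 in Con, 2675 ± 1980 in BLM, 15056 ± 13709 in KO and 8372 ± 4254 in KOBLM. Chil3 held between 45.2% and 92.2% of the counts of the 7 genes in a library, with a median of 80.0%, and its share was lowest in the 3 BLM libraries. Arg1 held 43.6%, 32.7% and 9.32% there and at most 17.8% in any other library, so a summed score of the 7 genes would weigh mainly Chil3, and in BLM 1 and BLM 2 Chil3 and Arg1. The neighbouring gene Chil4, 33925 bases away, is a close copy. Of the 426 windows of 75 bases in the last 500 bases of the Chil3 transcript, 12.2% occurred in other annotated transcripts, 52 of them in Chil4, so that some reads may have been split between these genes. Chil4 had 12 to 1901 counts, against 4343 to 330149 of Chil3.

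Retnla encodes the secreted protein RELM-alpha (FIZZ1), a response gene of interleukin-4 and interleukin-13 in macrophages and airway epithelium. The gene has 4 exons on the plus strand of chromosome 16 (48842551 to 48844461). It was a scarce transcript here, with 11.8, 22.8 and 43.7 CPM in Con, 24.0, 33.9 and 10.1 in BLM, 16.4, 61.3 and 97.7 in KO and 8.30, 96.2 and 3.55 in KOBLM. The ranges of all 4 groups overlapped. KOBLM 2 held 999 counts, against 62 in KOBLM 1 and 32 in KOBLM 3. No 75-base window of its last 500 bases occurred in another gene, its neighbour Retnlg included.

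Mrc1 encodes the mannose receptor CD206, an endocytic receptor that is often used to mark alternatively activated macrophages. It lies on the plus strand of chromosome 2 (14229392 to 14332057), has 30 exons, and contains the microRNA gene Mir511 on the same strand. The Con libraries were close to each other at 1235, 1001 and 1732 CPM. BLM was lower in every library, at 280.7, 670.7 and 219.7 CPM. KO libraries had 1349, 520.9 and 2281 CPM and KOBLM libraries 677.7, 1520 and 524.7 CPM, both overlapping Con. Mean CPM were 1322 ± 373 in Con, 390 ± 245 in BLM, 1384 ± 881 in KO and 907 ± 536 in KOBLM.

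Cd163 encodes a scavenger receptor for haemoglobin-haptoglobin complexes, found on tissue-resident and monocyte-derived macrophages. Its 17 exons are on the plus strand of chromosome 6 (124304656 to 124330527). It was a scarce transcript, with 28, 44 and 0 counts in Con, 453, 165 and 0 in BLM, 19, 0 and 0 in KO, and 7, 684 and 0 in KOBLM. Clear counts were thus found in 3 libraries, BLM 1, BLM 2 and KOBLM 2, and 1 library of each bleomycin group had none. The library without Cd163 in BLM was BLM 3. With BLM 3 left out, Cd163 was higher in BLM than in Con with no overlap, as were 16.1% of all genes tested.

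Mgl2 encodes the galactose-binding lectin CD301b of macrophages and dendritic cells. Its 9 exons are on the plus strand of chromosome 11 (70130329 to 70137550). Its CPM were 19.5, 64.4 and 30.8 in Con, 87.1, 216.7 and 0.36 in BLM, 18.8, 3.16 and 0.19 in KO and 18.2, 45.9 and 18.7 in KOBLM. All KO libraries were below all Con libraries, as held for 7.56% of all genes tested. The difference between Con 1 and KO 1 was small (146 and 185 counts in libraries of 7476755 and 9864272). KO 3 held 2 counts, under the floor of 3. In BLM, the libraries BLM 1 and BLM 2 were above all of Con, and BLM 3 held 4 counts.

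Il4ra encodes the alpha chain of the interleukin-4 and interleukin-13 receptors, and many cell types besides macrophages express it. It lies on the plus strand of chromosome 7 (125552120 to 125579474), has 11 exons, and is overlapped by Gm44876 on the other strand. Whether the counting used strand was not given in the sources used here, so reads of the pair cannot be told apart. Its CPM were 101.6, 188.7 and 141.9 in Con, 500.2, 523.6 and 149.2 in BLM, 177.4, 123.9 and 213.8 in KO and 233.9, 373.4 and 238.9 in KOBLM. Each KOBLM library was above each KO library. BLM 1 and BLM 2 were above every other library, and BLM 3 was within the range of Con.

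The comparison of BLM with Con asks what bleomycin did in mice with intact p300. The fitted log2 fold changes were 10.15 ± 3.61 (SE) for Arg1, 3.43 ± 2.95 for Cd163, 1.55 ± 1.56 for Mgl2 and 1.53 ± 0.58 for Il4ra on the positive side, and -1.65 ± 0.61 for Mrc1, -1.54 ± 0.82 for Chil3 and -0.09 ± 1.21 for Retnla on the negative side. The ratio of mean CPM, BLM over Con, was 1011 for Arg1, with Con 2 and Con 3 at 0 counts, 2.71 for Il4ra and 0.295 for Mrc1. The 7 genes therefore did not share a direction. Over all 13054 genes tested the median log2 fold change was -0.08, and the median of the 7 was 1.53. The ranges of CPM did not overlap for Arg1 among the genes with higher means (5.32% of all genes tested were higher without overlap) and for Chil3 and Mrc1 among those with lower means (11.8%). Without BLM 3, Arg1, Cd163, Mgl2 and Il4ra were all higher in BLM with no overlap (16.1% of all genes tested) and Chil3 and Mrc1 remained lower (15.4%), with log2 fold changes of 10.75 ± 3.33, 4.02 ± 2.62, 2.14 ± 1.16, 1.96 ± 0.38, -1.01 ± 0.67 and -1.30 ± 0.57 in that order.

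**Figure D2:**
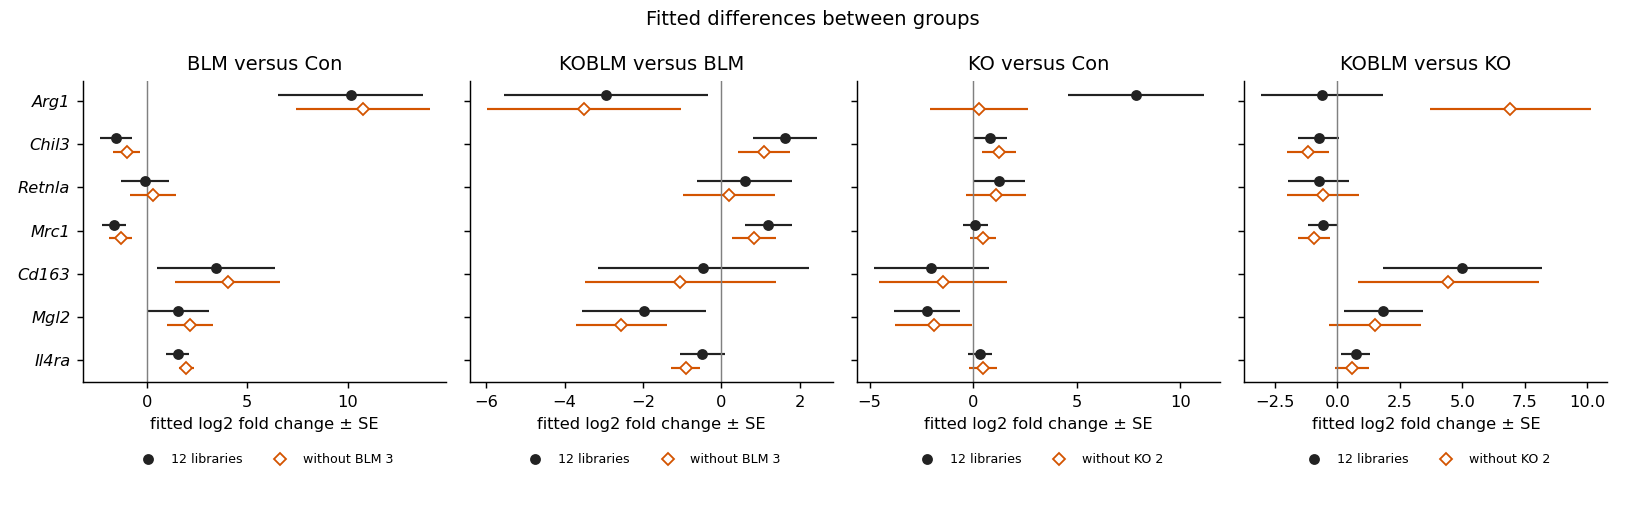
Fitted log2 fold changes of the 7 genes (x axis, ± SE) in the 4 comparisons, from edgeR's model of all 12 libraries (filled circles) and without BLM 3 (first 2 panels) or KO 2 (last 2 panels, open diamonds); each panel has its own x scale. Arg1 and Cd163 have the widest bars, and the Arg1 KO versus Con value moves from 7.84 to 0.27 without KO 2.

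KOBLM against BLM asks whether the bleomycin-treated lungs differed with p300 deleted in ATII cells. All 7 genes overlapped between these groups (6.04% of all genes tested were higher and 4.98% lower without overlap). The fitted log2 fold changes were -2.94 ± 2.61 for Arg1, -1.97 ± 1.58 for Mgl2, -0.48 ± 0.57 for Il4ra and -0.46 ± 2.69 for Cd163, and 1.62 ± 0.82 for Chil3, 1.2 ± 0.6 for Mrc1 and 0.60 ± 1.22 for Retnla. This comparison shares the BLM libraries with BLM against Con. The overlap depended on BLM 3. Without it Arg1, Mgl2 and Il4ra were lower in KOBLM with no overlap (15.4% of all genes tested were lower without overlap and 8.05% higher), with log2 fold changes of -3.51 ± 2.48, -2.55 ± 1.17 and -0.91 ± 0.38. Retnla turned to -1.90 without KOBLM 2.

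KO against Con compares the Spc-p300 d/d mice with the controls, both given PBS. Arg1 had a log2 fold change of 7.84 ± 3.29, which came from KO 2 and was 0.27 ± 2.38 without it. Mgl2 had -2.25 ± 1.6 and was lower in KO with no overlap, with or without KO 2 (7.56% of all genes tested were lower and 2.18% higher without overlap, or 11.1% and 6.36% without KO 2). The others were at 1.25 ± 1.23 for Retnla, 0.82 ± 0.81 for Chil3, 0.33 ± 0.57 for Il4ra, 0.10 ± 0.60 for Mrc1 and -2.02 ± 2.79 for Cd163.

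KOBLM against KO compares bleomycin with PBS in the Spc-p300 d/d mice. Il4ra, at 0.73 ± 0.57, was the 1 gene with no overlap (3.95% of all genes tested were higher and 2.87% lower without overlap), and it kept this without KO 2 (7.29% and 9.32%). Arg1 was at -0.63 ± 2.44, and at 6.92 ± 3.22 without KO 2. Cd163 was at 4.99 ± 3.18, and at -0.46 without KOBLM 2. Fits for Arg1 and Cd163 in these groups thus each rested on 1 library. In the interaction of bleomycin and genotype, Arg1 had -10.78 ± 4.16, which was -11.38 ± 3.81 without BLM 3 and -3.18 ± 3.17 without KO 2, so that much of it rested on KO 2. Il4ra had -0.80 ± 0.80, and -1.23 ± 0.51 without BLM 3. Mrc1 had 1.09 ± 0.85 and Chil3 0.79 ± 1.14, or 0.74 ± 0.74 and 0.26 ± 0.87 without BLM 3.

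Among themselves the 7 genes fell into different patterns over the 12 libraries. Correlations are of log2 CPM, are given as a description, and join 4 groups whose libraries also differ in depth and in the amount of macrophage RNA. Chil3 and Mrc1 went together (Pearson's r = 0.84, Spearman's rho = 0.85, r = 0.78 without BLM 3). Arg1 ran against Mrc1 (r = -0.80, rho = -0.80, r = -0.89 without BLM 3) and against Chil3 (r = -0.50, rho = -0.67, r = -0.68 without BLM 3). Cd163 and Mgl2 went together (r = 0.72, rho = 0.80), as did Cd163 and Il4ra (r = 0.69, rho = 0.58), although Cd163 was at or near 0 in most libraries. Retnla had no correlation above 0.49 with any other of the 7. Leaving out the 2 libraries whose value of the first gene lay farthest from the median gave r = 0.70 for Chil3 and Mrc1, -0.79 for Arg1 and Mrc1, -0.50 for Arg1 and Chil3, 0.73 for Cd163 and Mgl2 and 0.46 for Cd163 and Il4ra.

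**Figure D3:**
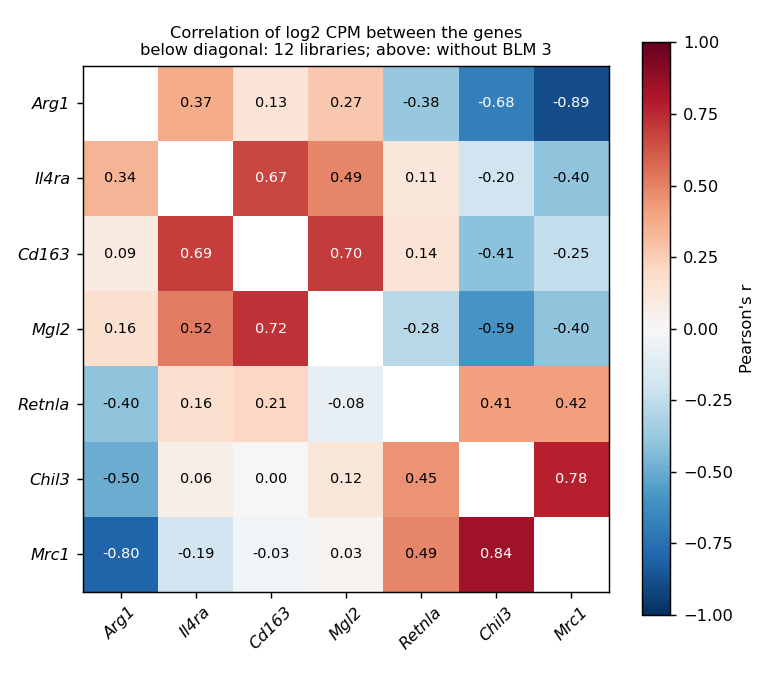
Pearson correlations of log2 CPM between the 7 genes over the 12 libraries (below the diagonal) and over the 11 libraries without BLM 3 (above the diagonal), with colour and number giving r. Arg1 with Mrc1 is the most negative pair (-0.80) and Chil3 with Mrc1 the most positive (0.84).

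The libraries with the most Arg1 were BLM 1, BLM 2, KO 2 and KOBLM 3. The same libraries held the most C1qa, a complement gene of tissue macrophages (6657, 7249, 4136 and 3273 counts, against 0 to 1560 elsewhere). They held little Ear1, a ribonuclease gene of alveolar macrophages, with 1417, 2177, 2540 and 1660 counts beside 4332 to 20687 in the other libraries but BLM 3, which had 1. Other alveolar macrophage markers did not follow Ear1. Marco had 3215, 5106, 10352 and 13051 counts, beside 2178 to 8400 in the other libraries but BLM 3, which had 0. Fabp4 had 528, 1822, 1001 and 1026 counts, beside 271 to 2448 in the other libraries but BLM 3, which had 10. The part of the cells marked by these genes in the levels of the 7 genes was not tested. Over all genes tested, the 3 most like Arg1 were Apoe (r = 0.94), Fam20c (0.92) and Id2 (0.91). Those most like Mrc1 were Ywhab (0.96), Sulf2 (0.96) and Ear2 (0.95), and those most like Chil3 were Mfsd1 (0.96), 4930453N24Rik (0.95) and Pgrmc1 (0.95). Mgl2 was closest to Trp53i11 (0.95), Serping1 (0.94) and Lrch4 (0.93), and Cd163 to 0610039K10Rik (0.94), 2410131K14Rik (0.90) and Mettl22 (0.90). For Retnla these were Mnat1 (0.82), Rnasek (0.82) and Cops7b (0.81), and for Il4ra C230037L18Rik (0.89), Rpl30 (0.88) and C330013E15Rik (0.88). Some of the genes closest to Cd163 and Il4ra were scarce. C230037L18Rik had at most 64 counts in a library, C330013E15Rik 57 and Mettl22 48, each with no count in several libraries. Without BLM 3, Mrc1 and Ywhab (0.95) and Ear2 (0.95), Arg1 and Apoe (0.94), Cd163 and 0610039K10Rik (0.94), Retnla and Cops7b (0.85) and Il4ra and C230037L18Rik (0.88) stayed among the closest, whereas the 3 genes closest to Chil3 and those closest to Mgl2 all changed.

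Since the sorted cells carried macrophage RNA, each gene was also set against the summed counts of the 17 pan-macrophage markers of the same library. Some of these markers themselves differed between groups, as given below, so the ratios are not corrected for macrophage content. Per 100 marker counts, Arg1 had 37.6, 19.7 and 9.03 counts in BLM, 0.0498, 0 and 0 in Con, 0.0323, 8.63 and 0 in KO, and 0.596, 0 and 3.53 in KOBLM. On this scale BLM did not overlap Con or KOBLM (8.43% of all genes tested were higher in BLM than in Con and 8.73% lower in KOBLM than in BLM without overlap). Il4ra had 5.04, 4.05 and 17.1 in BLM, 0.805, 1.75 and 0.963 in Con, 1.26, 0.948 and 1.57 in KO and 2.61, 2.33 and 1.13 in KOBLM, and its BLM values lay above all of Con and all of KOBLM. The values of BLM 3 have a small denominator: by CPM its Il4ra was within Con and below each KOBLM library, and its Arg1 was below KOBLM 3. Without BLM 3, Arg1 and Il4ra in BLM were still above all of Con and KOBLM (17.5% and 18.6% of all genes tested for these comparisons). For Mrc1 the lower level of BLM held in BLM 1 and BLM 2 (2.83 and 5.19, against 9.29 to 11.8 in Con) and not in BLM 3 (25.1). Chil3 had 39.0, 29.1 and 44.5 in BLM and 43.8, 47.6 and 102.7 in Con, which overlapped, and did not without BLM 3 (11.6% of all genes tested were then lower without overlap). Mgl2 was again lower in KO (0.133, 0.0242 and 0.00136) than in Con (0.155, 0.598 and 0.209) with no overlap (9.51% of all genes tested).

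**Figure D4:**
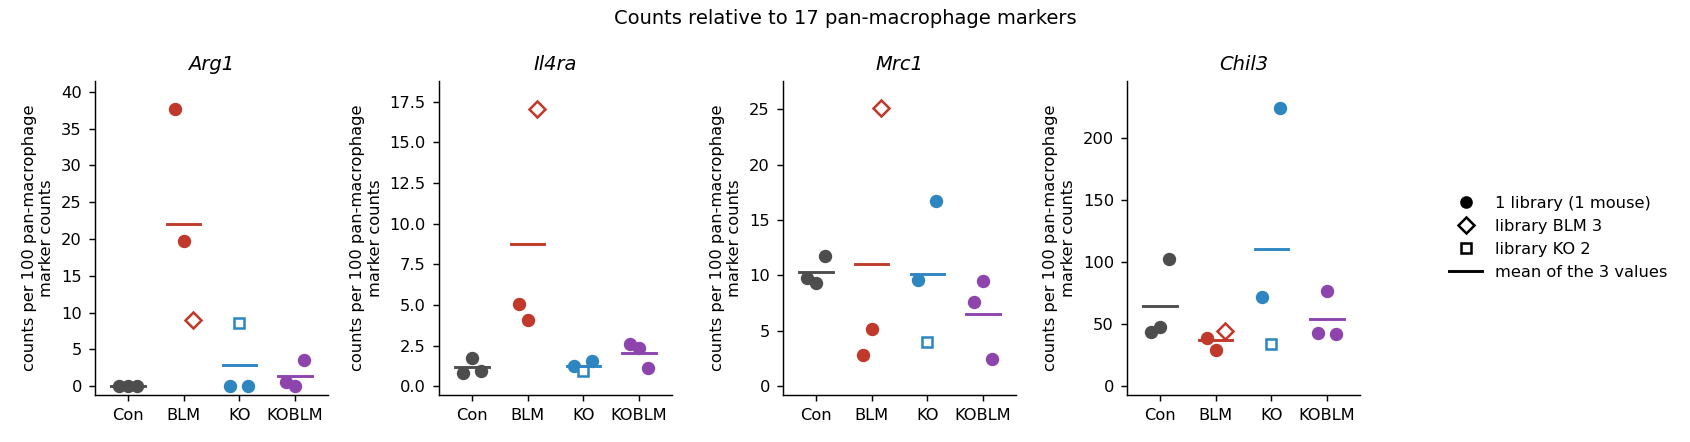
Counts of Arg1, Il4ra, Mrc1 and Chil3 per 100 summed counts of 17 pan-macrophage markers in the same library (y axis, linear) by group; points are single mice, lines the mean of 3, open symbols BLM 3 and KO 2. Arg1 and Il4ra in BLM lie above all Con and KOBLM values, and BLM 3 is the highest BLM point for Il4ra and Mrc1.

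The order of the groups depended on the markers chosen. A gene was called where edgeR's quasi-likelihood test gave a fold change above 1.5 and a p, before adjustment, below 0.05. Of the 17 pan-macrophage markers, 5 were called in BLM against Con (29.4%, beside 4.27% of all genes tested). C1qa, C1qb and C1qc were higher and Mpeg1 and Ptprc lower, each with an adjusted p of 0.995. Without BLM 3, 6 were higher and 2 lower (35.3% and 11.8%, beside 2.94% and 2.51%). In KOBLM against BLM 3 were called, Lyz2, Mpeg1 and Ptprc, all higher (17.6%, beside 3.16%). Of 11 tested alveolar macrophage markers, Chil3 left out, 7 were called lower in BLM than in Con and none higher (63.6%, beside 2.08% of all genes tested called lower), among them Fabp1 (log2 fold change -7.20 ± 1.80), Krt79 (-3.49 ± 1.03) and Itgax (-2.20 ± 0.53), each with an adjusted p of 0.995. Without BLM 3, 9 were called lower (81.8%, beside 2.51%). In KOBLM against BLM 5 of the 11 were called higher (45.5%, beside 1.39% of all genes tested) and none lower, and 6 without BLM 3 (54.5%, beside 1.76%). Per 100 counts of these markers, Chil3 was 160.2 ± 89.6 in BLM and 99.5 ± 54.5 in Con, the reverse of its order per pan-macrophage count, with overlap. Mrc1 had 18.7, 24.9 and 46.5 in BLM and 14.5, 13.9 and 18.6 in Con, so that BLM was above Con by a narrow gap between BLM 1 and Con 3, where 33.8% of all genes tested were higher without overlap. Arg1 in BLM (249.1, 94.5 and 16.7) was above Con but overlapped KOBLM (1.47, 0 and 21.3), and did not overlap it without BLM 3 (40.5% of all genes tested were then lower in KOBLM without overlap). Il4ra in BLM (33.4, 19.5 and 31.6) was above Con (1.19 to 2.62) and KOBLM (4.14 to 6.81), where 20.4% of all genes tested were lower in KOBLM than in BLM without overlap. Markers of neutrophils (143.0 to 5962.6 CPM), dendritic cells (26.4 to 494.0 CPM) and T cells and innate lymphoid cells (4.2 to 163.2 CPM) were present at levels that differed between libraries, and of 5 eosinophil markers Epx and Prg3 had no count and the others at most 91 counts (Ccr3 in KO 2). Fibroblast markers summed to between 1134 and 1845 CPM in BLM and to at most 657.7 CPM in other groups. Their part in the levels of the 7 genes was not tested.

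Of the rest of the pathway, 55 genes in 3 lists that hold none of the 7 were examined, and 51 were tested. The ligands were barely seen: Il4 had 23 counts in KO 2 and none elsewhere, and Il13 had 82 in KO 2 and 80 in KOBLM 1 and none elsewhere. The decoy receptor Il13ra2 had no count in any library, which at 3 counts is a floor of at most 0.428 CPM, whereas the receptor chains Il13ra1 and Il2rg were counted in 11 libraries, all but BLM 3. The signal transducer Stat6 had 169 to 1475 counts and was not called in any of the comparisons.

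In BLM against Con, 8 of the 51 genes were called, 4 higher and 4 lower, or 15.7% beside 4.27% of all genes tested (2.19% higher, 2.08% lower). Among those that rose were Ccl17, a chemokine of alternatively activated macrophages and dendritic cells (log2 fold change 6.24 ± 2.03), the scavenger receptor Msr1 (4.72 ± 1.77) and the Janus kinase Jak2 (2.12 ± 0.93). Those that fell were the ribonuclease gene Ear2 (-2.75 ± 0.85), the nuclear receptor partner Rxra (-2.77 ± 1.18), the beta-glucan receptor Clec7a (-2.44 ± 0.65) and the alveolar macrophage regulator Bhlhe41 (-1.70 ± 0.75). Ear2 is also on the list of alveolar macrophage markers and was counted among those called lower there. Each of the genes that rose or fell had an adjusted p of 0.995 over the genes tested. By edgeR no gene of the whole table had an adjusted p under 0.05, with 558 genes called before adjustment, and by DESeq2 114 had one, Ccl17 (adjusted p = 0.0094) and Clec7a (adjusted p = 0.0291) among them. The median of the 51 log2 fold changes was -0.57, against -0.08 over all genes tested, so that more of the pathway lay below the median of all genes than above it (19 of 51 were above). Without BLM 3 the count of calls was 14, beside 5.45% of all genes tested. It was 5 without Con 1, without Con 3 or without BLM 1, beside 2.08%, 2.53% and 3.55%.

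By list, 1 of 12 tested genes of interleukin-4 and interleukin-13 signalling was called in BLM against Con (8.33%, beside 4.27% of all genes tested). So were 3 of 16 regulators of alternative activation (18.8%) and 4 of 23 other genes of the alternative programme (17.4%). Counts of Ccl17 were 3337, 9635 and 503 in the BLM mice, against 0, 234 and 3 in Con. Those of Msr1 were 3085, 2483 and 0, against 75, 69 and 158, so BLM 3 had none of a gene that was highest in BLM 1 and BLM 2. For Clec7a they were 1760, 2923 and 570, against 10083 to 13350, and the groups did not overlap. Ccl17, Clec7a and Ear2 kept their call in each of the 12 alternative fits, Msr1 in 11, Rxra in 9, Bhlhe41 in 6 and Jak2 in 4. Bhlhe41 lost it with the replicate block and on leaving out Con 1, Con 2 or any 1 of the BLM libraries, BLM 3 included.

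In KOBLM against BLM, 2 of the 51 genes were called, 3.92% beside 3.16% of all genes tested (1.39% higher, 1.78% lower): Clec7a was higher (2.62 ± 0.65, adjusted p = 1) and Ccl17 was lower (-4.50 ± 1.86, adjusted p = 1). KOBLM libraries held 9830, 11162 and 16783 counts of Clec7a, close to or above the Con counts, and 329, 21 and 310 of Ccl17. Clec7a kept its call in each of 12 alternative fits. By DESeq2 its adjusted p was 0.0168, and 78 genes of the whole table had one under 0.05. Ccl17 lost its call with the replicate block, without BLM 2, without KOBLM 2 and without KOBLM 3. Without BLM 3 there were 6 calls, beside 3.34% of all genes tested. Clec7a (2.12 ± 0.42, adjusted p = 0.301), Rxra (1.39 ± 0.58), the arginine transporter Slc7a2 (1.90 ± 0.61) and the transglutaminase Tgm2 (0.96 ± 0.43) were then higher in KOBLM, and Ccl17 (-5.06 ± 1.67) and the lectin Clec10a (-4.86 ± 1.63) lower, each but Clec7a with an adjusted p of 1. In KO against Con, Msr1 was called higher (3.88 ± 1.70, adjusted p = 1) and Lyve1, a hyaluronan receptor of interstitial macrophages and lymphatic vessels, lower (-3.35 ± 1.38, adjusted p = 1), 3.92% of 51 beside 1.44% (0.536% higher, 0.904% lower). Neither was called without KO 2 or without Con 3, and Msr1 was also lost without Con 1, without Con 2 and with the replicate block. Msr1 had 212, 2107 and 1025 counts in KO, and Lyve1 242, 38 and 0. In KOBLM against KO, Jak2 (3.12 ± 0.97, adjusted p = 1) and Lyve1 (3.53 ± 1.39, adjusted p = 1) were called higher, 3.92% beside 1.69% (1.16% higher, 0.529% lower), and Lyve1 was not called without KO 2 or without KOBLM 1. Jak2 kept its call in each of 12 alternative fits. By DESeq2 its adjusted p was 0.0419, and 57 genes of the whole table had one under 0.05. The interaction of bleomycin and genotype called 4 of the 51, 7.84% beside 2.82% (1.51% higher, 1.31% lower): Clec7a (2.28 ± 0.88) and Fcer2a (9.01 ± 4.12) higher, and Ccl17 (-6.24 ± 2.48) and Msr1 (-5.11 ± 2.27) lower, each with an adjusted p of 1. Of 17 alternative fits, Clec7a kept its call in all, Ccl17 in 16 (not without BLM 2), Msr1 in 8 and Fcer2a, which had at most 86 counts in any library, in 6. Msr1 lost it with the replicate block and without KO 2, BLM 1, BLM 2, KOBLM 1, KOBLM 2 or any 1 of the Con libraries. Without BLM 3, 7 pathway genes were called in the interaction, beside 4.63% of all genes tested, Clec7a, Ccl17 and Msr1 among them, and without KO 2 Clec7a and Ccl17 were, beside 2.45%.

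**Figure D5:**
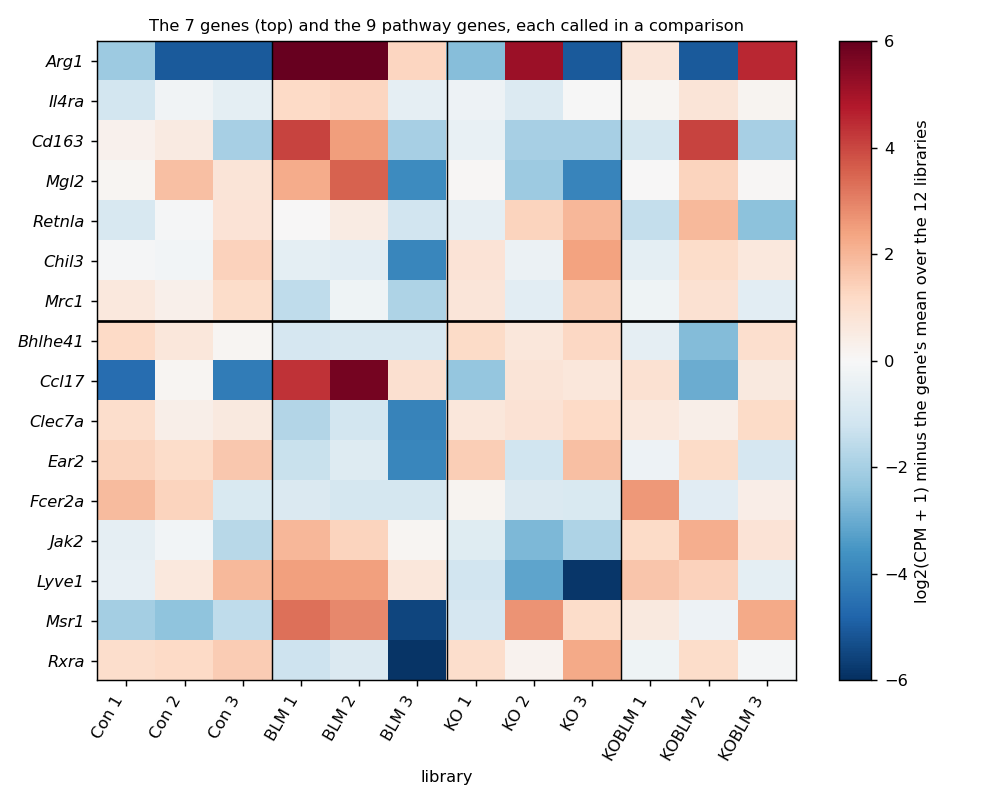
The 7 genes (above the line) and 9 pathway genes called in a comparison (below) in each library, as log2(CPM + 1) minus the mean of the gene over the 12 libraries; the colour scale ends at -6 and 6. Clec7a and Ear2 are low in all BLM libraries, and Ear2 is also low in KO 2 and KOBLM 3. Arg1 and Msr1 are high in BLM 1, BLM 2, KO 2 and KOBLM 3, and BLM 3 is low for Msr1 and Rxra.

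Genes around arginine and the genes of classical activation were read beside these. Of 8 genes of arginine and polyamine metabolism none was called in BLM against Con, and in KOBLM against BLM the spermidine synthase Srm was lower (-2.38 ± 1.08, adjusted p = 1), with 2469 counts in BLM 3 and 57 to 569 in the other libraries, and was not called without BLM 3 (-1.41 ± 1.09). Arg2, the mitochondrial arginase, was at 1620, 958 and 27 counts in BLM, against 454 to 532 in Con, and was called higher in BLM without BLM 3 (1.85 ± 0.50, adjusted p = 0.386). Of 17 tested genes of classical activation, 1 was called in BLM against Con (5.88%, beside 4.27% of all genes tested). It was the cytokine Il1b (2.74 ± 0.98, adjusted p = 0.995). Its 600 counts in BLM 3 lay within the 320 to 2365 of Con, and the 10904 and 3341 of BLM 1 and BLM 2 above them. Without BLM 3, Il1b was at 3.30 ± 0.70 (adjusted p = 0.162) and 5 of the 17 were called. Of these, 4 were higher and 1 lower (23.5% and 5.88%, beside 2.94% and 2.51% of all genes tested). Nos2, the nitric oxide synthase that competes with Arg1 for arginine, had at most 57 counts in any library.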

How the data were processed

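RNA of sorted ATII cells from 12 mice, 3 per group with 1 library each, was sequenced with a QuantSeq 3′ kit as single-end reads of 75 nt. The authors deposited raw counts per gene symbol without normalization. Submitters' processing notes name Bowtie2, edgeR and mm10, with no versions. Here counts of symbols listed more than once were summed, and CPM were taken over the library total. Genes kept by filterByExpr (minimum count 10, total 15) were scaled by TMM (factors 0.84 to 1.26) and fitted with the quasi-likelihood model of edgeR 4.0.16 over the 4 groups (8 residual degrees of freedom, biological coefficient of variation 1.44). The call threshold was a fold change above 1.5 with a two-sided p below 0.05 before adjustment, and Benjamini-Hochberg values were taken over all genes tested. The fitting steps were also run on simulated data. Their spread between replicates was smaller than in these libraries, so the run does not check the fit at this spread.

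The 7 genes and the gene lists were chosen with earlier results of these data known. Genes named are the 7, and of each other list those called or highest in mean CPM, the 3 genes most correlated with each of the 7 on log2 CPM (prior count 2), Ep300, Chil4 and Retnlg. Il4, Il13, Il13ra1, Il13ra2, Stat6, Nos2, Sftpc, Sftpb, Epx, Prg3, Marco and Fabp4 fall outside this rule and were named after their values were seen. Of the pathway genes called, 1 is counted but not reported here. Alternatives were DESeq2 size factors, library size alone, totals without Rn45s, no low-count filter, a replicate block, the 2 groups alone, DESeq2 1.42.0, an adjusted p, another marker denominator and each library left out. Values without BLM 3 or KO 2 for the other lists, the interaction and the marker scale were added after seeing the data. Positions are from GENCODE M21 on GRCm38 (mm10) and promoters from RefSeq GRCm38.p6. R 4.3.3 and Python 3.11.15 were used.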

Additional observations from a re-analysis of the deposited data

How the results depend on the processing

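The count of pathway genes called, 8 in BLM against Con, was 5 with a replicate block, 5 with only the 2 groups compared, 14 with DESeq2 and 0 with an adjusted p under 0.05, and ran from 5 to 14 with single libraries left out (14 without BLM 3). For KOBLM against BLM (2) it was 7 without the low-count filter, 1 with the replicate block, 7 with DESeq2, 0 adjusted and 2 to 6 with libraries left out. For KO against Con (2) it was 4, 1, 4 and 0 under the same settings and 0 to 4, and for KOBLM against KO (2) it was 4 without the filter, 4 with DESeq2, 0 adjusted and 2 to 4. The interaction (4) gave 0 adjusted and 2 to 7. By DESeq2, for BLM against Con, KOBLM against BLM, KO against Con, KOBLM against KO and the interaction, an adjusted p under 0.05 was reached by 2, 1, 0, 1 and 0 pathway genes. Over all genes, DESeq2 called 947, 755, 374, 460 and 625 where edgeR called 558, 413, 188, 221 and 368. The replicate block gave 262 in KOBLM against BLM, 100 in KO against Con, 100 in KOBLM against KO and 242 in the interaction, the 2 groups alone gave 149 in KOBLM against BLM and 138 in KOBLM against KO, and no low-count filter gave 645 in KOBLM against BLM and 706 in the interaction. With any 1 library left out these counts ran from 292 to 767, 236 to 471, 88 to 446, 105 to 433 and 332 to 672 in that order of comparisons.

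Replicate numbers are shared between groups, but deviations of same-numbered libraries correlated between -0.12 and 0.10, so the numbers were not taken as pairs, and the block moved counts as given above.

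With single libraries left out, the log2 fold change of Arg1 ran from 9.52 to 17.33 (BLM against Con), 0.27 to 15.03 (KO against Con) and -4.02 to 6.92 (KOBLM against KO). For Cd163 it ran from -5.91 to 0.85 (KOBLM against BLM), -7.66 to -1.37 (KO against Con) and -0.46 to 10.64 (KOBLM against KO), for Retnla from -1.90 to 1.14 (KOBLM against BLM) and -3.24 to -0.21 (KOBLM against KO), and for Mrc1 from -2.46 to -1.30 (BLM against Con). With alveolar markers as the denominator, the log2 ratio of BLM to Con went from -0.79 to 0.69 for Chil3 and from 1.43 to 3.26 for Mgl2. With totals without Rn45s, calls in KOBLM against BLM split 170 higher and 352 lower, against 181 and 232, and library size alone put the median log2 fold change of all genes at -0.21 in KO against Con, against -0.09. No other scaling or block moved a value of the 7 genes by more than the spread between replicates. The cause of these shifts was not tested. Genes under the floor of 3 counts in some Con or KO libraries, Cd163, Arg1 and Mgl2, have folds that depend on the fit. For Mgl2 in KO against Con the log2 fold change ran from -4.26 to -1.59 with single libraries left out.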
